A study of Homo sapiens with 4 samples.

Results

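The extracellular matrix genes described here are fibronectin (FN1), vitronectin (VTN), the fibrillins FBN1 and FBN2, the microfibril protein MFAP5, the fibulins FBLN1 and EFEMP1, and the small leucine-rich proteoglycans FMOD, DCN and BGN. They are 10 of the 27452 genes in the tables. Members were chosen by gene name, with earlier results of these data known. FMOD and FN1 were selected on their large difference between the groups, so their changes are given as a description without a test. RNA was sequenced from cells labelled HepG2, an established human liver cancer line, grown in DMEM with 10% fetal bovine serum. One group carried a short hairpin RNA against the transcription factor STAT3 (STAT3 shRNA) and the other a control hairpin (Ctrl shRNA), with 2 libraries each. The comparison asked what lowering STAT3 does to the expression of other genes. The labels do not say whether the libraries of a group share a hairpin, a clone or a culture, so p-values here reflect variation among these libraries that may be only technical.

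Fibronectin is a dimeric glycoprotein that cells assemble into fibrils through integrins, and hepatocytes secrete a soluble form of it, and vitronectin, into plasma. Fibrillins polymerise into microfibrils, the scaffold on which elastin is laid down, with MFAP5 as a microfibril-associated glycoprotein and fibulins as linkers. Small leucine-rich proteoglycans carry few glycosaminoglycan chains and bind collagen fibrils, whose diameter they control. Fibrillins, decorin and biglycan also bind growth factors of the TGF-beta family or the complexes that store them.

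The libraries held 17694642 to 25862027 reads, and 3 reads equalled 0.113 to 0.163 CPM (read counts scaled to library size, with TMM factors). STAT3, the target, was read first and stood at 245.03 and 244.3 CPM in Ctrl shRNA against 34.7 and 36.1 CPM in STAT3 shRNA (edgeR log2 fold change -2.79, adjusted p = 3.28e-07). The label HepG2 was checked against 14 hepatocyte and hepatoma markers, of which 8 were analysed here. They summed to 64 and 75 reads with Ctrl shRNA and to 231 and 109 with STAT3 shRNA. Albumin (ALB) had 0, 0, 0 and 3 reads, APOA1 0, 0, 1 and 2, and APOA2 0 in every library, so these secreted liver products were at or near 0 and the libraries are called by their labels only. The other tested markers of this list moved in opposite directions. HNF4A, a liver transcription factor, had 24, 34, 192 and 91 reads (3.99-fold higher with STAT3 shRNA, adjusted p = 0.00131, edgeR), and transferrin (TF) had 38, 41, 24 and 8 reads (3.01-fold lower, adjusted p = 0.0236, edgeR; call lost in 4 of 13 alternative fits and not tested in 1). The fibroblast gene COL1A1 had 718 and 826 reads in Ctrl shRNA and 400 and 263 in STAT3 shRNA, and LUM had 0 to 7 reads per library. Over 10 analysed fibroblast and stellate cell markers the summed level was 51.0 and 60.4 CPM in Ctrl shRNA and 38.8 and 33.8 CPM in STAT3 shRNA, with COL1A1 carrying the fall. Without COL1A1 the sum was 12.9 and 17.3 CPM against 23.8 and 19.5 CPM. ACTA2, smooth muscle actin, was 2.11-fold higher (adjusted p = 0.0132, edgeR; call lost in 3 of 13 alternatives), and the median log2 fold change of the 6 tested markers was 0.33. The part of these markers in the results was not tested. Over 5 endothelial markers it was 1.20 to 1.80 CPM in both groups. Over 3 macrophage markers it was 10.7 and 15.2 CPM in Ctrl shRNA and 24.2 and 27.9 CPM in STAT3 shRNA, nearly all of it from CD68. In bulk RNA fewer cells of a type and less RNA per cell cannot be told apart.

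Promoter sequences are shown for 4 of the genes because FMOD and FN1 had the largest differences in opposite directions, FBN1 rose most among the others, and VTN holds a STAT-type motif without a called change. Each runs from 250 bases before to 50 bases after the RefSeq start site (GRCh38.p14), 5′ to 3′ on the gene's own strand, with matches of the searched motifs in capitals. FMOD lies at chr1:203351073-203351372, FN1 at chr2:215436019-215436318, FBN1 at chr15:48644921-48645220 and VTN at chr17:28370258-28370557, all on the minus strand. These start sites can differ from the GENCODE gene starts used for positions below. The GENCODE starts of FMOD (203351758), FBN1 (48645849) and VTN (28373091) lie upstream of their windows. That of FBN2, at 128659185, lies upstream of the FBN2 window searched below (chr5:128538196-128538495). That of FBLN1, at 45502238 on the plus strand, lies upstream of the FBLN1 window searched below (chr22:45502633-45502932). Those of FN1 and BGN lie inside their windows.
FMOD: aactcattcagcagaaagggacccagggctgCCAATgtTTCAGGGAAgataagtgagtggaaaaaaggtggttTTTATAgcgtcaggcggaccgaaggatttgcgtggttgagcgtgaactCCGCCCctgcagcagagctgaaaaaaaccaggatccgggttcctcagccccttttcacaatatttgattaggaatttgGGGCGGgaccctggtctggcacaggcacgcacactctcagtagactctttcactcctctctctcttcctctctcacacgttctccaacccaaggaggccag
FN1: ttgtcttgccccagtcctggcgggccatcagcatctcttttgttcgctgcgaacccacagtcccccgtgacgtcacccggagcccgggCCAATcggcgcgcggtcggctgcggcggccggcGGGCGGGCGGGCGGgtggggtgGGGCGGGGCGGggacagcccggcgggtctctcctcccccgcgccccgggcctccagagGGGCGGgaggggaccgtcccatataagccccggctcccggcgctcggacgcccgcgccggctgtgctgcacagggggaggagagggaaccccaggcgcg
FBN1: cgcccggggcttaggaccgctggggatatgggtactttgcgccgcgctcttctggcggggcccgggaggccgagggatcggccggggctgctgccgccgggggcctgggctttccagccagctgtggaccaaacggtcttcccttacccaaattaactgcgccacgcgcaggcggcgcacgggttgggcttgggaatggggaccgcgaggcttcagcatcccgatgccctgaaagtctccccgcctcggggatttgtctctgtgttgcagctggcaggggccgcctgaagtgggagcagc
VTN: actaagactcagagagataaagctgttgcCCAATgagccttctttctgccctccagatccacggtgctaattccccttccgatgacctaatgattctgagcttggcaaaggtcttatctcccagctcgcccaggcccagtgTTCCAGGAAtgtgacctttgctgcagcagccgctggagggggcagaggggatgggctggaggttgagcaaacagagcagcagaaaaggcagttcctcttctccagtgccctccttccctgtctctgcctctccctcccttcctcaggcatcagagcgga

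Both strands were searched for the paired STAT half-site TTCNNNGAA and for the AP-1 motif TGANTCA. The promoter elements searched were the TATA box, spelled TATAAA, the GC box, spelled GGGCGG, and the CCAAT box. Matches of different motifs were counted separately where they overlap. Sequences were found for 7 of the 10 genes, which leaves DCN, EFEMP1 and MFAP5. TTCNNNGAA was present in 2 of the 7, once in FMOD (TTCAGGGAA, starting at position -212 from the start site) and once in VTN (TTCCAGGAA, at position -109), and 7.66% of 35116 promoters of that length hold it. FMOD also held 1 TATAAA, 2 GGGCGG and 1 CCAAT, and VTN 1 CCAAT. FN1 had 6 copies of GGGCGG, some overlapping each other, and 1 CCAAT, while FBN1 matched none of the 5 motifs. GGGCGG was in 5 of the 7, against 45.0% of all such promoters, and TGANTCA was in 0 of the 7, against 7.71%. The windows of FMOD, FN1, FBN1 and VTN have a GC content of 52.3%, 76.7%, 68.3% and 56.0%. A match is a description of letters and not a site of binding.

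Of the 10 genes, 9 passed the filter on low counts and BGN did not. Among the 7 tested genes that were not picked for their change, 4 were higher with STAT3 shRNA (FBN1, FBN2, MFAP5 and DCN), 0 were lower, and FBLN1, EFEMP1 and VTN did not pass (edgeR quasi-likelihood test, adjusted p under 0.05 over 15199 genes). Of all tested genes 35.5% were called, 16.8% higher and 18.7% lower. Library CPM was separate between the groups for 5 of the 7, all but FBLN1 and VTN, and for 70.8% of all tested genes. With 7 genes these shares are a description only.

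**Figure D1:**
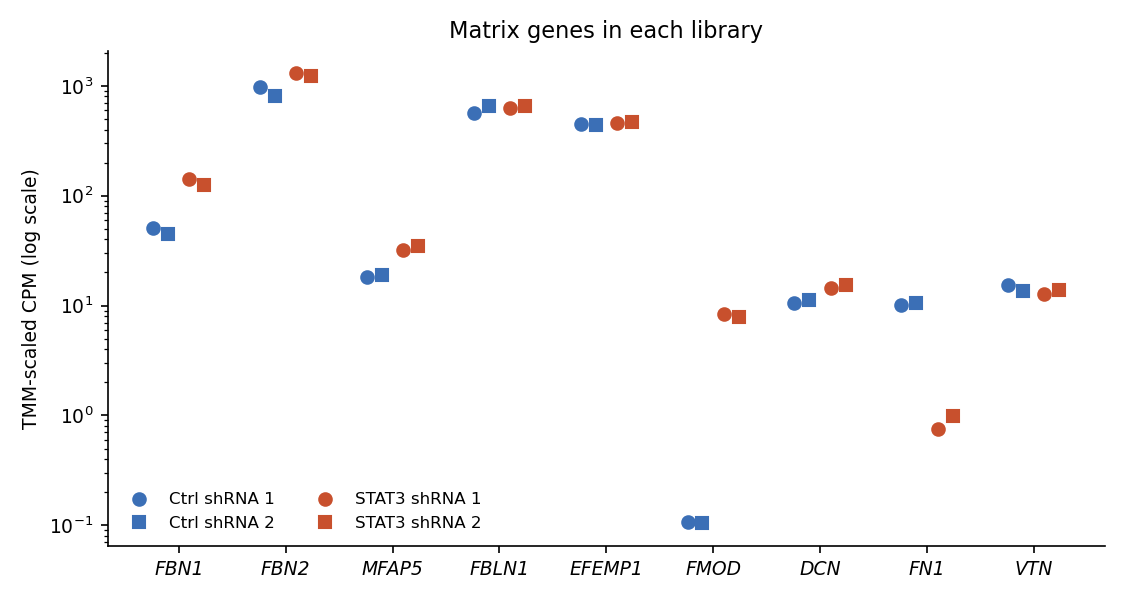
TMM-scaled CPM on a log axis for 9 of the genes, 1 point per library (circle for number 1, square for number 2; blue Ctrl shRNA, red STAT3 shRNA); BGN, with 0 or 1 read per library, is not drawn. FBN1 and MFAP5 lie higher in both STAT3 shRNA libraries, FMOD moves from 0.105 to 8.12 CPM, FN1 from 10.3 to 0.864 CPM, and FBLN1, EFEMP1 and VTN stay near their control level.

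FBN1, fibrillin-1, the main fibrillin of adult tissue and the gene mutated in Marfan syndrome, measured 50.8 and 44.9 CPM with Ctrl shRNA against 140.8 and 124.03 CPM with STAT3 shRNA. Both STAT3 shRNA libraries were far above both controls. The log2 fold change was 1.47 ± 0.10 (SE), a 2.77-fold rise with an adjusted p = 3.16e-05 in the edgeR test. FBN1 spans chromosome 15, 48408306 to 48645849, minus strand (GENCODE 29, GRCh38).

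FBN2, fibrillin-2, which is mainly a fibrillin of development, was at 985.7 and 809.4 CPM in Ctrl shRNA and at 1302 and 1239 CPM in STAT3 shRNA. The 2 control libraries differed more from each other than the 2 STAT3 shRNA libraries did, and the groups did not overlap. The rise was 1.42-fold (log2 fold change 0.50 ± 0.10, SE; adjusted p = 0.00562, edgeR). FBN2 took the most reads of the 10 genes in every library. It lies on chromosome 5, 128257909 to 128659185, minus strand.

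Per length, FBN2 was the more abundant fibrillin in every library. Its FPKM (fragments scaled to transcript length and library size, as deposited) was 10.6 and 12.1 times that of FBN1 with Ctrl shRNA and 5.96 and 6.52 times with STAT3 shRNA. By reads, FBN2 was 19.4 and 18.02 times FBN1 with Ctrl shRNA and 9.24 and 9.99 times with STAT3 shRNA. Both ratios were thus lower in both STAT3 shRNA libraries, while FBN2 stayed ahead. The transcript length implied by counts, FPKM and the library total was 5777 to 7123 bases for FBN1, whose longest annotated transcript has 11756 bases. The 95% intervals of the log2 fold changes were 1.24 to 1.70 for FBN1 and 0.27 to 0.73 for FBN2, and the difference between them was not tested.

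MFAP5, also known as MAGP-2, which binds fibrillin microfibrils, stood at 18.2 and 18.9 CPM in Ctrl shRNA and at 32.1 and 34.8 CPM in STAT3 shRNA. The pairs were tight and separate. MFAP5 rose 1.80-fold (log2 fold change 0.85 ± 0.11, SE; adjusted p = 0.000552, edgeR). It lies on chromosome 12, 8637346 to 8662888, minus strand. FBN1, FBN2 and MFAP5 together made up 17.1% and 13.0% of the summed FPKM of the 10 genes in Ctrl shRNA and 22.5% and 21.5% in STAT3 shRNA. Calls of FBN1, FBN2 and MFAP5 were made in all 13 alternative fits.

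FBLN1, fibulin-1, a calcium-binding linker of basement membranes and elastic fibres, was at 561.5 and 654.4 CPM in Ctrl shRNA and at 627.8 and 661.4 CPM in STAT3 shRNA. The groups overlapped. Its log2 fold change of 0.08 had a 95% interval of -0.13 to 0.30 (adjusted p = 0.517, edgeR), so a change of either sign within that interval was not resolved. FBLN1 was called higher without Ctrl shRNA replicate 2 (log2 fold change 0.19, adjusted p = 0.0357, edgeR) and with an offset for GC content (0.25, adjusted p = 0.0277, edgeR). It lies on chromosome 22, 45502238 to 45601135, plus strand.

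EFEMP1, fibulin-3, a secreted fibulin with EGF-like repeats, was at 447.9 and 437.1 CPM in Ctrl shRNA and at 461.7 and 468.3 CPM in STAT3 shRNA. All 4 libraries lay close together, although those of STAT3 shRNA were the 2 highest. The log2 fold change was 0.07 (95% interval -0.10 to 0.24; adjusted p = 0.503, edgeR). EFEMP1 lies on chromosome 2, 55865967 to 55924139, minus strand. FBLN1, EFEMP1 and FBN2 together held 93.2% and 93.9% of the summed FPKM of the 10 genes in Ctrl shRNA and 90.4% and 89.7% in STAT3 shRNA.

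FMOD, fibromodulin, a collagen-binding keratan sulfate proteoglycan, had 2 and 2 reads with Ctrl shRNA but 223 and 145 with STAT3 shRNA. That is 0.106 and 0.105 CPM against 8.37 and 7.88 CPM, so FMOD was at the limit of detection in the controls and present at a low level in both STAT3 shRNA libraries. FMOD passed the count filter through the STAT3 shRNA group alone. The ratio of reads per sequenced depth was 77.6, with a 95% counting interval of 30.04 to 286.2 that covers counting error only. Its fitted log2 fold change of 6.19 ranked 35th from the top of 15199 tested genes, and leaving out 1 library moved it between 6.14 and 6.23. FMOD lies on chromosome 1, 203340628 to 203351758, minus strand.

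DCN, decorin, the dermatan sulfate proteoglycan of collagen fibrils, was at 10.4 and 11.3 CPM in Ctrl shRNA and at 14.6 and 15.3 CPM in STAT3 shRNA. The groups did not overlap, and the rise was 1.37-fold (log2 fold change 0.46 ± 0.14, SE; adjusted p = 0.0329, edgeR). The call of DCN was lost in 7 of 13 alternatives. Among them were DESeq2 (adjusted p = 0.114) and the edgeR fit with an offset for GC content, where the log2 fold change was 0.25 (adjusted p = 0.206). It was also lost in edgeR without Ctrl shRNA replicate 1 (adjusted p = 0.0715), without STAT3 shRNA replicate 1 (0.136) and without STAT3 shRNA replicate 2 (0.213). DCN lies on chromosome 12, 91140484 to 91183123, minus strand.

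BGN, biglycan, the closest relative of decorin, had 0 and 1 reads in Ctrl shRNA and 0 and 1 reads in STAT3 shRNA. It was not detectable above 3 reads in any library, and no fold is given. BGN (chromosome X, 153494939 to 153509554, plus strand) shares part of its span with the opposite-strand gene HAUS7, which had 701 to 932 reads per library. FMOD, DCN and BGN together were at 10.6 and 11.4 CPM in Ctrl shRNA and at 22.9 and 23.3 CPM in STAT3 shRNA, and decorin supplied nearly all of the control level.

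FN1, fibronectin, measured 10.07 and 10.6 CPM with Ctrl shRNA (190 and 203 reads) against 0.750 and 0.978 CPM with STAT3 shRNA (20 and 18 reads). Both STAT3 shRNA libraries lay about an order of magnitude below both controls. The ratio of reads per depth, Ctrl shRNA over STAT3 shRNA, was 12.3 with a 95% counting interval of 8.78 to 17.6. The fitted log2 fold change was -3.59, the 75th lowest of 15199 tested genes, and ran from -3.78 to -3.39 when 1 library was left out. FN1 lies on chromosome 2, 215360440 to 215436172, minus strand.

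The deposited FPKM of FN1 gave a smaller difference than the counts. They were 1.96 and 1.49 in Ctrl shRNA and 0.56 and 0.13 in STAT3 shRNA, a log2 ratio of group means of -2.32 against -3.58 for CPM. The 2 STAT3 shRNA libraries differed several-fold in FPKM but had nearly equal read counts. The transcript length implied by counts, FPKM and the library total was 5027 and 6767 bases in Ctrl shRNA but 1381 and 7825 bases in STAT3 shRNA replicates 1 and 2, where the longest annotated transcript has 9171 bases. For FBN2, with many reads, the same quantity was 10496 to 10606 bases in every library. For FBLN1, also with many reads, it varied from 1592 to 1943 bases. Of 12201 tested genes with at least 1 FPKM in every library, 11.1% had implied lengths that varied by over 1.5 times.

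VTN, vitronectin, an adhesive plasma protein that also binds the plasminogen activator inhibitor PAI-1, was at 15.5 and 13.5 CPM in Ctrl shRNA and at 12.8 and 13.8 CPM in STAT3 shRNA. The groups overlapped, with a log2 fold change of -0.13 (95% interval -0.46 to 0.19; adjusted p = 0.505, edgeR). VTN (chromosome 17, 28367276 to 28373091, minus strand) overlaps the opposite-strand gene SARM1, whose reads equal 49.0% of those of VTN and which was higher with STAT3 shRNA (log2 fold change 0.85, adjusted p = 0.00786, edgeR; call lost in 3 of 13 alternatives). Whether counting used strand is not given in the sources used here, so the reads of VTN are uncertain to that extent.

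**Figure D2:**
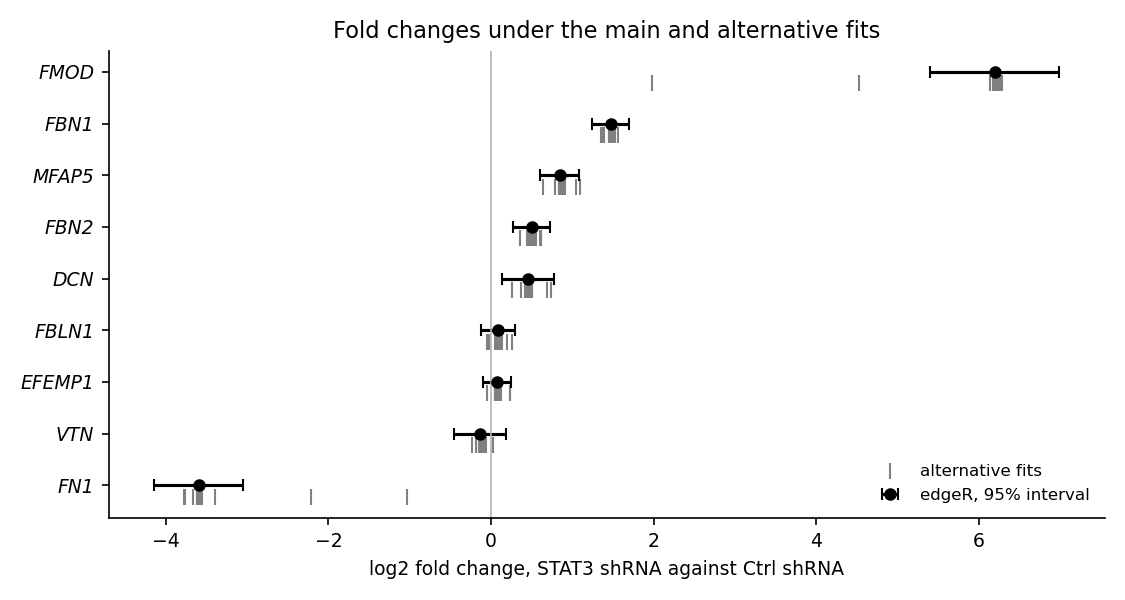
Log2 fold change (STAT3 shRNA against Ctrl shRNA) of the 9 genes that passed the filter. The edgeR estimate and its 95% interval are in black and the 13 alternative fits are grey ticks. FMOD and FN1 were picked for their change, so their drawn intervals are a description and not a test. The intervals of FBN1, MFAP5, FBN2 and DCN lie above 0 and those of FBLN1, EFEMP1 and VTN include it; the 2 FMOD and 2 FN1 ticks nearest to 0 are fits to log2(FPKM + 1) and log2(FPKM + 0.1).

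By FPKM, the order of levels in Ctrl shRNA was FBLN1 (352.7 ± 53.6, SD, n = 2), EFEMP1 (204.9 ± 9.10), FBN2 (81.9 ± 13.1), MFAP5 (13.4 ± 0.410), VTN (12.6 ± 0.771), DCN (8.74 ± 1.94), FBN1 (7.30 ± 1.85), FN1 (1.73 ± 0.332), FMOD (0.04) and BGN (0.015). DCN and FBN1, neighbours in that order, overlapped between libraries, and the other neighbours did not. In STAT3 shRNA the first 4 places were the same, with FBLN1 at 344.1, EFEMP1 at 240.8, FBN2 at 124.6 and MFAP5 at 28.9 FPKM. FBN1 came next at 20.03 ± 1.69 FPKM, ahead of DCN (14.5 ± 1.34) and VTN (11.6 ± 3.10), which overlapped each other. FMOD at 3.11 ± 0.0990 FPKM was above FN1 at 0.345 ± 0.304 FPKM, the reverse of their order in the controls. Reads per kilobase of the longest annotated transcript gave another order for close neighbours: VTN came before MFAP5 and FBN1 before DCN in Ctrl shRNA, and VTN and FMOD came before DCN in STAT3 shRNA. The 10 genes together took 0.205% and 0.190% of reads in Ctrl shRNA and 0.268% and 0.267% in STAT3 shRNA.

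GC content of the longest transcript moved with the comparison. Over 14545 tested genes, not independent of each other, its Spearman rho with the log2 fold change was -0.34, and with the log2 difference between Ctrl shRNA libraries 1 and 2 it was -0.45. With the log2 difference between STAT3 shRNA libraries 1 and 2 it was 0.12. Transcripts of the genes called higher had 38.1% (DCN), 39.8% (MFAP5), 46.7% (FBN1) and 48.04% GC (FBN2). Those not called had 44.9% (EFEMP1), 56.5% (VTN) and 57.0% (FBLN1). FMOD, which was higher with STAT3 shRNA, had 53.0% GC, and FN1, which was lower, had 42.2%. With an offset for GC content the log2 fold changes were 1.39 for FBN1, 0.64 for MFAP5 and 0.44 for FBN2, all still called in edgeR (adjusted p = 1.83e-05, 0.00167 and 0.00614).

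Genes around FN1 were lower as well. Within 5 Mb of its start site 51 other genes were tested, of which 39 were called lower and 1 higher. The median log2 fold change of the 51 was -0.68. Of all tested genes 18.7% were called lower, and the median of all was 0.02. Most of the 51 lie together on 1 side, from 2.60 Mb (TNS1) to 4.19 Mb (SLC4A3) away from FN1. The other side held only LANCL1, CPS1, ERBB4, BARD1 and ATIC. ATIC, a purine synthesis enzyme and the only tested gene within 500 kb, fell from 180.4 and 171.6 to 135.5 and 127.4 CPM (log2 fold change -0.42, adjusted p = 0.00491, edgeR; call lost in 3 of 13 alternatives). TNS1, which encodes tensin-1 and lies 2.60 Mb away, had -2.52, closest to the -3.59 of FN1 among these 51 and picked out for that value. The part of the wider shift in the difference of FN1 was not tested.

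Around FMOD, 79 other genes were tested within 5 Mb, 27 of them higher (34.2%, against 16.8% of all tested genes) and 11 lower (13.9%, against 18.7%), with a median log2 fold change of 0.20. NR5A2, a nuclear receptor gene at -3.32 Mb from its start site, had 0 and 0 reads in Ctrl shRNA and 74 and 30 in STAT3 shRNA, the one gene of this window with a larger fitted change than FMOD, and was picked out for that value. The nearest tested protein-coding genes on one side were BTG2, an antiproliferative p53 target 46.3 kb away (log2 fold change 0.75, adjusted p = 0.000978, edgeR), and ADORA1, the adenosine A1 receptor (2.52, adjusted p = 0.000557, edgeR). On the other side were the calcium pump ATP2B4 (0.18, adjusted p = 0.150, edgeR) and ZC3H11A (0.31, adjusted p = 0.0190, edgeR; call lost in 5 of 13 alternatives). PRELP and OPTC, proteoglycans of the same family, had 0 to 2 reads per library.

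**Figure D3:**
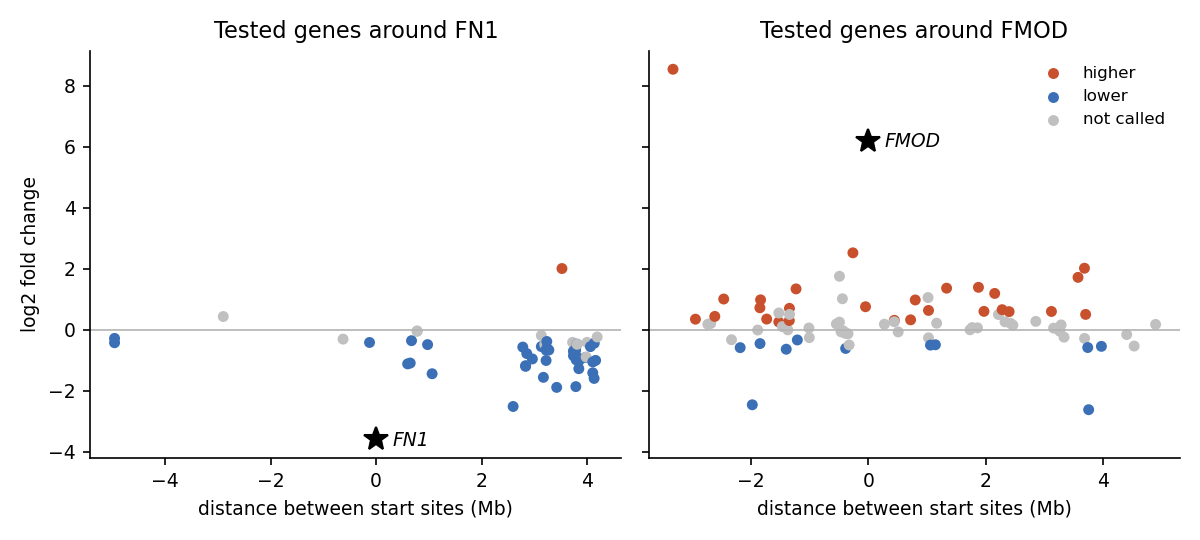
Log2 fold change of tested genes against the distance of their start site from that of FN1 (left) and FMOD (right), within 5 Mb; red and blue points were called higher and lower at adjusted p under 0.05, grey points were not called, and stars are FN1 and FMOD. Most points around FN1 lie below 0 (39 of 51 called lower), and around FMOD they spread on both sides.

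Around the other members the same 5 Mb windows held, for FBN1, 18 higher and 4 lower of 61 tested genes (29.5% and 6.56%; median 0.24) and, for BGN, 10 higher and 25 lower of 78 (12.8% and 32.1%; median -0.19). Of all tested genes 16.8% were higher and 18.7% lower. The counts higher and lower were 8 and 5 of 31 for FBN2, 19 and 18 of 111 for MFAP5, 5 and 2 of 29 for DCN, 14 and 19 of 105 for FBLN1, 4 and 2 of 26 for EFEMP1, and 16 and 12 of 80 for VTN. DUT, a nucleotide-metabolism gene 315 kb from FBN1, fell by 0.25 on the log2 scale while FBN1 rose (adjusted p = 0.0416, edgeR). Its call was lost in 6 of 13 alternatives, with the sign turned in 2. CEP152 and EID1, nearer on the other side of FBN1, had log2 fold changes of 0.24 and -0.17. They were not called (adjusted p = 0.145 and 0.168, edgeR). Near MFAP5, RIMKLB and PHC1 had log2 fold changes of 0.10 and 0.21 and were not called (adjusted p = 0.467 and 0.288, edgeR).

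Genes that act with these proteins were read from 8 lists of partners with 152 genes, of which 91 were tested. Of these 25 were higher and 25 lower with STAT3 shRNA, 54.9% in all where 35.5% of all tested genes were called. The median log2 fold change was 0.09 against 0.02 for all tested genes. The lists were chosen with earlier results of these data known, so these shares are a description only.

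Elastic fibre genes beside the members had 2 higher and 3 lower of 13 tested, with a median of 0.26. FBLN5, a fibulin needed for elastic fibre assembly, was at 28.7 and 28.1 CPM in Ctrl shRNA and at 11.1 and 11.5 CPM in STAT3 shRNA, a fall of 2.51-fold (adjusted p = 9.10e-05, edgeR). LOX, the lysyl oxidase that cross-links collagen and elastin, fell 2.70-fold from 35.6 and 41.1 CPM to 11.6 and 17.1 CPM (adjusted p = 0.00045, edgeR). LTBP1, which ties latent TGF-beta to fibrillin and fibronectin, fell 1.85-fold from 24.3 and 23.2 CPM to 13.5 and 12.1 CPM (adjusted p = 0.000865, edgeR; call lost in the 2 FPKM fits). LOXL4, another lysyl oxidase, rose 2.81-fold from 1.54 and 1.46 CPM to 4.58 and 3.86 CPM (adjusted p = 0.00387, edgeR). The most abundant of the list, LOXL2, showed a log2 fold change of -0.27 (adjusted p = 0.111, edgeR). FBLN7, another fibulin and the other gene of the list called higher, went from 13.4 and 17.5 CPM to 25.1 and 25.9 CPM (1.65-fold, adjusted p = 0.00489, edgeR) and was picked out after its value was seen.

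Of 10 tested receptors of fibronectin and vitronectin 3 were higher and 4 lower (median -0.08). ITGB1, the beta-1 integrin chain and the most abundant receptor, went from 696.1 and 662.4 to 805.7 and 827.3 CPM (1.20-fold higher, adjusted p = 0.0268, edgeR; call lost in 5 of 13 alternatives, among them without either STAT3 shRNA library). The vitronectin receptor chains ITGB5 and ITGB8 fell 1.64-fold and 1.62-fold (adjusted p = 0.000536 and 0.0215, edgeR; ITGB8 was uncalled in 3 of 13 alternatives, including that without STAT3 shRNA replicate 1). PLAUR, the urokinase receptor that binds vitronectin, fell 2.01-fold (adjusted p = 0.000683, edgeR). ITGA5, the partner of ITGB1 in the main fibronectin receptor, was at 49.6 and 52.5 CPM on average in Ctrl shRNA and STAT3 shRNA and was not called (adjusted p = 0.527, edgeR); it was picked out after its value was seen.

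Among 9 tested matrix proteins and modifiers that bind fibronectin or vitronectin 1 was higher and 2 lower (median 0.10). TGM2, the transglutaminase that cross-links fibronectin, fell 2.83-fold from 137.1 and 152.2 CPM to 51.7 and 50.4 CPM (adjusted p = 1.49e-05, edgeR). HSPG2 (perlecan), the most abundant of them, showed a log2 fold change of -0.48 (adjusted p = 0.0057, edgeR; call lost in 4 of 13 alternatives, among them without STAT3 shRNA replicate 2). CCN2, a matricellular protein, rose from 15.9 and 14.6 CPM to 26.2 and 44.02 CPM (2.29-fold, adjusted p = 0.00329, edgeR), and its 2 STAT3 shRNA libraries differed from each other.

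Fibril-forming and associated collagens had 1 higher and 3 lower of 8 tested (median -0.06). COL5A2, a chain of collagen V, was at 106.2 and 105.3 CPM in Ctrl shRNA and at 14.4 and 15.7 CPM in STAT3 shRNA, a 7.04-fold fall (adjusted p = 6.94e-07, edgeR). COL1A1 fell 2.77-fold (adjusted p = 5.00e-05, edgeR), and COL5A1, the most abundant, fell by 0.24 on the log2 scale (adjusted p = 0.0451, edgeR), a call lost in 7 of 13 alternatives, among them leaving out either STAT3 shRNA library, with the sign turned in 2. COL5A3, with 10 and 6 reads in Ctrl shRNA and 41 and 21 in STAT3 shRNA, rose from 0.422 to 1.34 CPM (adjusted p = 0.0315, edgeR). It was uncalled in 6 of 13 alternatives, including DESeq2 and leaving out Ctrl shRNA replicate 2 or either STAT3 shRNA library, and with the 5 CPM filter it was not tested.

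Of 17 tested proteases and inhibitors that act on this matrix 8 were higher and 6 lower (median 0.22). The matrilysin MMP7 rose 3.76-fold from 4.35 and 6.80 CPM to 22.1 and 19.8 CPM (adjusted p = 0.000256, edgeR), and the inhibitor TIMP2 1.74-fold (adjusted p = 0.00018, edgeR). The membrane metalloproteinase MMP15 fell 2.14-fold (adjusted p = 8.22e-05, edgeR), and the convertase PCSK6 rose 1.62-fold (adjusted p = 0.000439, edgeR). FURIN, the convertase that trims profibrillins, stood at -0.65 on the log2 scale (adjusted p = 0.00181, edgeR) and was picked out after its value was seen.

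Enzymes that make glycosaminoglycan chains had 5 higher and 5 lower of 21 tested (median 0.09). CHST2, a sulfotransferase of keratan sulfate, the chain type of fibromodulin, rose from 13.9 and 16.5 CPM to 32.5 and 31.7 CPM (2.11-fold, adjusted p = 0.000301, edgeR). CHPF and B3GAT3, which build chondroitin chains and the linker, fell 2.08-fold and 1.74-fold (adjusted p = 0.000248 and 0.00238, edgeR). CHPF lies 4.11 Mb from FN1 and is among the 51 tested genes around FN1 described above. UGDH, which makes the precursor UDP-glucuronate, was the most abundant and rose 1.36-fold (adjusted p = 0.0245, edgeR; call lost in 5 of 13 alternatives, among them without either STAT3 shRNA library).

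In the TGF-beta family list 5 of 12 tested genes were higher and 1 lower (median 0.25). ENG, the co-receptor endoglin, went from 1.27 and 1.46 CPM to 27.3 and 26.1 CPM (19.5-fold, adjusted p = 2.10e-06, edgeR). TGFBR3 (betaglycan) and BMP4 rose 2.12-fold and 2.33-fold, and BMP2 fell 2.71-fold (adjusted p = 0.000274, 0.00099 and 1.41e-05, edgeR). SMAD3, a signal transducer of TGF-beta, had the highest mean over all 4 libraries, although BMP2 was above it in Ctrl shRNA, and rose 1.33-fold (adjusted p = 0.00596, edgeR; call lost in 4 of 13 alternatives).

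Of 14 other small leucine-rich proteoglycans 12 were analysed and only TSKU was tested. TSKU (tsukushi) was at 89.7 and 100.6 CPM in Ctrl shRNA and at 76.01 and 75.7 CPM in STAT3 shRNA (log2 fold change -0.33, adjusted p = 0.0213, edgeR). Its call was lost in 5 of 13 alternatives, namely the GC offset, both FPKM fits, and without either STAT3 shRNA library. The other 11 had at most 19 reads in any library, LUM among them with 0 and 2 reads in Ctrl shRNA and 7 and 6 in STAT3 shRNA.

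**Figure D4:**
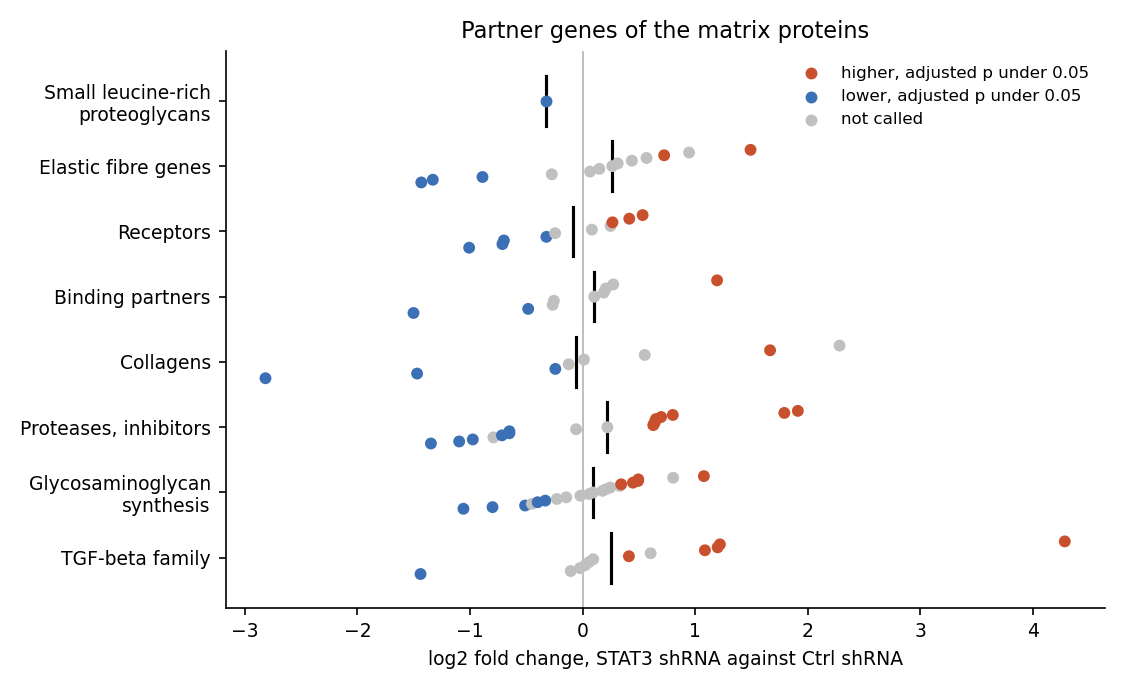
Log2 fold change (STAT3 shRNA against Ctrl shRNA) of each tested gene in the 8 partner lists, red where called higher, blue where called lower and grey where not called, with a black bar at the list's median. Called genes lie on both sides of 0 in 7 of the lists, and the eighth holds 1 tested gene; endoglin at 4.28 and COL5A2 at -2.82 are the outermost points.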

How the data were processed

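RNA-seq libraries of cells labelled HepG2 were analysed from 2 tables. Values are raw read counts per gene, deposited by the authors without normalization, and FPKM per gene, normalized by the authors, per the file headers. The aligner, counter, genome build, annotation, kit and strand setting were not given in the sources used here. Columns were matched by name; those named "Si" were read as STAT3 shRNA. Members and lists were chosen with earlier results of these data known.

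Counts were tested with edgeR 4.0.16 (R 4.3.3; TMM, filterByExpr with a minimum count of 10, glmQLFTest, a two-sided test with no covariate, Benjamini-Hochberg over 15199 genes, threshold 0.05). Library totals ran from 17694642 to 25862027 reads. Positions, transcript length and GC content are from GENCODE 29 (GRCh38), matched by Ensembl ID without version, and promoters from RefSeq (GRCh38.p14). Near-identical copies of the members were sought with blastn at 95% identity over 50% of the transcript, and none was found. Named list genes were up to 4 per list with the smallest p among those called with at least 1.5-fold change and 1 CPM, plus the most abundant; other genes were picked after their values were seen. Alternatives were RLE and upper-quartile scaling, other filters (none, or 5 CPM in 2 libraries), the replicate block, leaving out each library, DESeq2 1.42.0, limma-trend (limma 3.58.1) on log2(FPKM + 1) and log2(FPKM + 0.1), and a GC offset. The 5 Mb windows were added after the data were seen. The edgeR script was tested on simulated data. Counting intervals are exact binomial (95%) and cover counting error only.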

Additional observations from a re-analysis of the deposited data

How the results depend on the processing

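FBN1, FBN2, MFAP5 and STAT3 kept direction and call in all 13 alternatives. DCN lost its call with DESeq2 (log2 fold change 0.44), the GC offset (0.25), log2(FPKM + 1) (0.69) and log2(FPKM + 0.1) (0.74). With 1 library left out DCN ran from 0.37 to 0.51 and FBLN1 from -0.055 to 0.19, and FBLN1 was called with the GC offset (0.25). EFEMP1 turned to -0.046 and VTN to 0.021 with the GC offset, both uncalled. With 1 library left out, 1128 to 3367 genes were called higher and 1399 to 3924 lower, lowest without a STAT3 shRNA library, and 3 to 5 members other than FMOD and FN1 higher. With FPKM, 1349 and 1315 genes were called higher and 1186 and 1179 lower (pseudocounts 1 and 0.1). At these pseudocounts the log2 fold change was 1.98 and 4.52 for FMOD and -1.03 and -2.22 for FN1. Without a pseudocount the log2 ratio of FMOD group means was 6.28 in FPKM and 6.27 in CPM. The smaller FMOD values thus come from adding the pseudocount to control FPKM of 0.04. For FN1 the ratio without a pseudocount was -2.32 in FPKM and -3.58 in CPM. The replicate block changed no call of a member; with it FBN1 was at 1.47 and DCN at 0.46. The labels do not say whether a shared number pairs libraries. Deviations of same-numbered libraries correlated at -0.024 across genes, which cannot decide it, since differences within each group also moved with GC content. FN1, with 18 to 20 reads in STAT3 shRNA, and BGN, with at most 1 read, are limited by depth. Apart from the pseudocounts for FMOD, the cause of these changes was not tested.

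Counts in the partner lists moved as follows. With the GC offset they were 0 lower for small proteoglycans, 4 higher for elastic fibre genes, 1 lower for binding partners, 3 higher for collagens and 3 lower for chain synthesis. With FPKM, at either pseudocount, they were 0 lower for small proteoglycans, 1 higher and 2 lower for receptors, 1 lower for binding partners, 0 higher for collagens, and 1 higher and 2 lower for chain synthesis. With a filter of 5 CPM they were 1 higher for elastic fibre genes and 0 higher for collagens, with DESeq2 0 higher for collagens and 3 higher for chain synthesis, without a filter or with the replicate block 2 higher for collagens, and with upper-quartile scaling 2 higher for binding partners. With 1 library left out they ran from 0 to 1 lower for small proteoglycans, 2 to 4 higher for elastic fibre genes, 1 to 4 higher for receptors, 2 to 5 lower for receptors, 1 to 4 higher for binding partners, 1 to 4 lower for binding partners, 0 to 1 higher for collagens, 1 to 5 higher for chain synthesis and 2 to 6 lower for chain synthesis.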
